A study of Homo sapiens with 3 samples.

Results

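The 9 olfactory receptor genes OR51B5, OR51B4, OR51B2, OR51B6, OR51M1, OR51I1, OR51I2, OR52A1 and OR51V1 lie beside the beta-globin cluster on chromosome 11, and are 9 of 851 genes with an olfactory receptor symbol among the 58735 genes of the deposited tables. They were chosen by name and position, and because OR51B5 carried most olfactory receptor reads in every library, so the levels and shares below are a description of that choice. The study sequenced RNA from cells labelled KG1a, a line of acute myeloid leukaemia origin that is known for the surface antigen CD34, in 3 libraries. The control library came from cells infected with a lentivirus carrying a control hairpin (labelled wild type), and 2 libraries, called knockdown 1 and knockdown 2 here, from cells infected with a hairpin lentivirus against TRAF7, which encodes a ubiquitin ligase of the RING type. Where 3 values follow each other without a label, they are in the order control, knockdown 1, knockdown 2. All 3 libraries thus came from cells with a hairpin vector and carry the same batch label, and the labels leave unsaid whether the 2 knockdown libraries came from separate cultures or hairpins. The p-values therefore measure only how far these samples spread, and that spread may be technical.

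Olfactory receptors are seven-transmembrane receptors coupled to G proteins, and in the nose each sensory neuron expresses a single receptor gene. Odorant binding there activates the G protein subunit encoded by GNAL, adenylyl cyclase (ADCY3) and a cyclic nucleotide-gated channel. In mammals the beta-like globin genes sit inside a large array of such receptor genes, and a distal enhancer array, the locus control region, lies between the embryonic globin gene HBE1 and the receptor genes on its far side.

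The targeted transcript was lower in both knockdown libraries, with TRAF7 at 46.5, 15.6 and 18.3 FPKM, a read count scaled to exon length and to library size. Reads assigned to genes numbered 16014485, 16221721 and 16254461. The libraries did not carry the defining marker of the labelled line: CD34 had 0, 1 and 10 reads, MPO had 0, 0 and 1, and FLT3 was listed at 0 in all 3. Of the 7 markers fixed for KG1a, 3 had a mean of at least 1 FPKM (SPN, PTPRC and LYZ), and the list summed to 64.3, 58.0 and 44.9 FPKM. Of 11 erythroid markers 7 reached that level, summing to 105.6, 238.4 and 215.8 FPKM. Of 7 markers of olfactory sensory neurons only ADCY3 did, and OMP, CNGA2 and RTP1 were at 0 reads in every library. The lymphoid list, led by CD3D, summed to 7.33, 5.59 and 6.81 FPKM, and the stromal and epithelial list, led by KRT18 and KRT8, to 131.5, 162.2 and 144.7. The erythroid, stromal and epithelial sums were higher in both knockdown libraries and the KG1a and lymphoid sums lower. Their part in the results below was not tested. In bulk RNA, fewer cells of a type and less RNA per cell cannot be told apart.

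OR51B5 is annotated as a long gene that spans most of its neighbours. It runs over 202.2 kb of the minus strand (chromosome 11, positions 5303444 to 5505652, GRCh38, GENCODE release 29). Of its 5 transcripts, 4 are spliced from 5 exons each and start at position 5505652 or 5505613, and 1, OR51B5-201, is the single coding exon at 5342586 to 5343524. That exon makes up 23.7% of the 3965 exonic bases over which the reads of the gene were counted, so the FPKM of OR51B5 does not separate the single-exon coding transcript from the spliced ones. The first exon is shared with 2 globin genes: exons of HBE1 cover 84 bases and exons of HBG2 cover 37 bases of OR51B5 exons, through the annotated transcripts HBE1-201 and HBG2-202, which start at 5505652 and 5505605. AC104389.4, a long gene model of the same strand, covers 127 exonic bases. In all, 211 exonic bases of OR51B5 are shared, and the sources used here do not give how reads on them were assigned.

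Of the other members, 5 lie inside the OR51B5 span. OR51B2 (5323359 to 5324297) and OR51I1 (5440570 to 5441514) are on the same strand, and OR51B6 (5351508 to 5352446), OR51M1 (5383812 to 5393263) and OR51I2 (5449323 to 5456518) on the opposite strand. OR51B4 (5301014 to 5301946, minus strand) lies 1.498 kb beyond the 3′ end of OR51B5. OR51V1 (5199735 to 5200700) and OR52A1 (5143219 to 5154757), both on the minus strand, lie on the other side of the globin genes. The exons of these 8 genes share 0 bases with exons of any other annotated gene, but the exons of the 5 inside genes fall within introns of OR51B5. No source used here states whether the counting used strand, so reads from unspliced OR51B5 RNA cannot be told apart from reads of the genes inside it. OR51B4 and these 5 genes also lie inside the annotated spans of HBE1 (5268345 to 5505652), HBG2 (5253190 to 5505605) and AC104389.4 (5254392 to 5678434). The same limit therefore holds for them, OR51B4 included, with unspliced RNA of those long gene models.

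**Figure D1:**
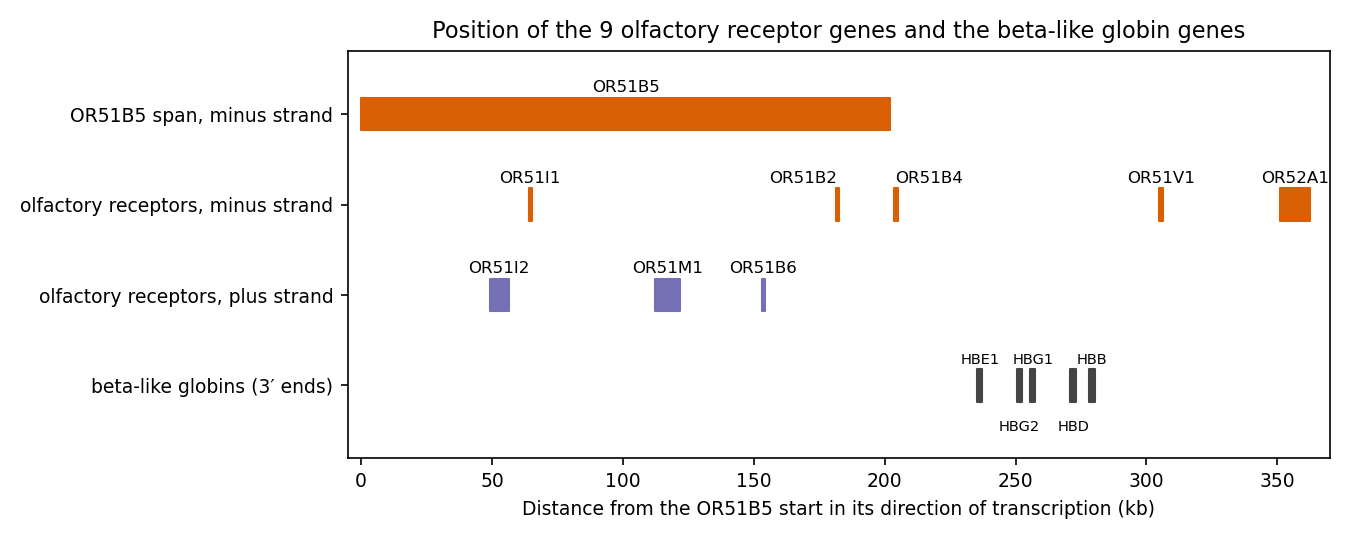
Position of the 9 receptor genes by strand and of the 3′ ends of 5 beta-like globin genes, as distance in kb from the OR51B5 start along its direction of transcription (very short genes are drawn slightly wider to be visible). OR51B5 spans 202.2 kb and encloses 5 of the other members, while OR51V1 and OR52A1 lie beyond the globin genes.

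The 4 genes of the OR51B subfamily are related but distinguishable in their coding sequence. OR51B5 matched OR51B4 at 69.7%, OR51B2 at 70.0% and OR51B6 at 71.4% of aligned coding positions, and the longest identical runs were 19, 20 and 17 bases. Over all 36 pairs of members the identity ran from 53.0% (OR51B4 with OR52A1) to 71.4%, and the longest identical run was 31 bases, between OR51B4 and OR51I2.

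OR51B5, a receptor reported to respond to the odorant isononyl alcohol, had the highest level of the 9 genes in each library. The control held 2421 reads of it, which is 36.2 FPKM (95% Poisson interval 34.7 to 37.6). Knockdown 1 held 2411, or 39.1 FPKM (37.5 to 40.7), and knockdown 2 held 2723, or 42.2 FPKM (40.7 to 43.8). These intervals, here and below, cover counting error only. By FPKM it ranked 1141st, 1291st and 1046th of all genes in the 3 libraries. By the deposited FPKM, both knockdown libraries were above the control, by ratios of 1.08 (counting interval 1.02 to 1.14) and 1.17 (1.11 to 1.23). The intervals of the control and knockdown 1 overlapped. Knockdown 1 held fewer reads of OR51B5 than the control, 2411 against 2421, among more assigned reads, 16221721 against 16014485. The knockdown 1 ratio above 1 thus rests on the deposited scaling. By limma, on the log2(FPKM + 1) scale, the log2 fold change of OR51B5 was 0.16 ± 0.17 (SE; adjusted p = 0.794), and −0.02 under quantile normalization. With values scaled to all assigned reads, this fold change was 0.06. The difference was no larger than its error.

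OR51B4, the receptor just past the end of OR51B5 and reported to respond to the fragrance compound Troenan, had the second highest level and was lower in both knockdown libraries. The control held 444 reads of it, which is 28.2 FPKM (25.6 to 30.9). Knockdown 1 held 187, or 12.9 FPKM (11.1 to 14.9), and knockdown 2 held 275, or 18.1 FPKM (16.0 to 20.4). The control stood above both knockdown libraries with no overlap of the intervals, and the intervals of the 2 knockdown libraries did not overlap either. The ratios to the control were 0.457 (0.383 to 0.543) and 0.643 (0.551 to 0.749). Limma gave a log2 fold change of −0.84 ± 0.24 (SE; unadjusted p = 0.0141, adjusted p = 0.450). Limma-voom on the recovered reads, chosen after seeing the data, gave an adjusted p of 0.0837. Over the alternatives tried the fold change ran from −0.98 to −0.71 and the adjusted p from 0.0837 to 0.649, and single knockdown libraries gave −1.07 and −0.61. OR51B4 was the 1 member of 7 with a mean of at least 10 reads whose interval lay below that of the control in both knockdown libraries. The same held for 7.7% of the 15034 genes at that read level.

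Relative to OR51B5 in the same library, the level of OR51B4 per length was lower in both knockdown libraries than in the control. The control had 77.9% of the OR51B5 FPKM (70.3 to 86.3), knockdown 1 had 33.0% (28.3 to 38.3) and knockdown 2 had 42.9% (37.8 to 48.6). This ratio is taken within a library, so it does not depend on scaling between libraries. With 1 control library it has no replicate check.

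OR51I1, inside the OR51B5 span and on its strand, was high in knockdown 1 alone. The control held 87 reads of it, which is 5.45 FPKM (4.37 to 6.73). Knockdown 1 held 188, or 12.8 FPKM (11.02 to 14.7), and knockdown 2 held 101, or 6.57 FPKM (5.35 to 7.99). The control and knockdown 2 overlapped, and knockdown 1 stood above both. Knockdown 1 was 2.34 times the control (1.81 to 3.06) and knockdown 2 was 1.21 times (0.896 to 1.62). Over both, limma estimated a log2 fold change of 0.66 ± 0.36 (SE; adjusted p = 0.623). As a share of the OR51B5 FPKM, OR51I1 was at 15.1%, 32.7% and 15.6%.

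OR51I2, the neighbouring receptor gene on the opposite strand, differed in opposite directions in the 2 knockdown libraries. The control held 90 reads of it, which is 1.61 FPKM (1.30 to 1.98). Knockdown 1 held 123, or 2.39 FPKM (1.99 to 2.86), and knockdown 2 held 60, or 1.12 FPKM (0.853 to 1.44). The 2 knockdown libraries did not overlap, and the control lay between them, overlapping knockdown 2 and not knockdown 1. Their ratios to the control were 1.48 (1.12 to 1.97) and 0.692 (0.491 to 0.970). OR51I2 had a log2 fold change of 0.04 ± 0.34 (SE; adjusted p = 0.982 by limma), and −0.03 when values were scaled to all assigned reads.

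OR51B2, the other OR51B gene inside the span on the minus strand, did not differ between libraries beyond counting error. The control held 59 reads of it, which is 3.72 FPKM (2.83 to 4.80). Knockdown 1 held 42, or 2.87 FPKM (2.07 to 3.88), and knockdown 2 held 51, or 3.34 FPKM (2.49 to 4.39). All 3 intervals overlapped. OR51B2 had a log2 fold change of −0.20 ± 0.19 (SE; adjusted p = 0.774 by limma).

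OR51B6 and OR51M1, both on the plus strand, did not reach the mean of 1 FPKM that limma's test required. OR51B6 had 0.757, 1.57 and 0.524 FPKM (12, 23 and 8 reads). OR51M1 had 0.462, 0.549 and 0.285 FPKM (32, 35 and 19 reads). In both genes knockdown 1 had the highest value and knockdown 2 the lowest, and the interval of the control overlapped those of both knockdown libraries. By limma-voom their log2 fold changes were 0.25 ± 0.79 (SE; adjusted p = 0.945) and −0.23 ± 0.58 (adjusted p = 0.932).

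No read was assigned to OR52A1 or OR51V1, the 2 members on the far side of the globin genes, in any library. A count of 0 allows up to 3 reads per library, or 0.0182 to 0.0197 FPKM for OR52A1 (9783 exonic bases) and 0.184 to 0.200 FPKM for OR51V1 (966 exonic bases). Reads were thus assigned to all 7 members on the HBE1 side of the globin genes and to neither member on the HBB side. Of the promoter table of RefSeq (GRCh38.p14, 250 bases before to 50 after a start), OR51V1 was the 1 member of 9 with an entry. Searched on both strands, that window held no AGATAA or TGATAA (present in 16.3% of 35116 promoters), no CACCC (59.9%) and no TATAAA (11.5%), and it held 3 matches to CANNTG, a palindromic pattern present in 68.7%.

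**Figure D2:**
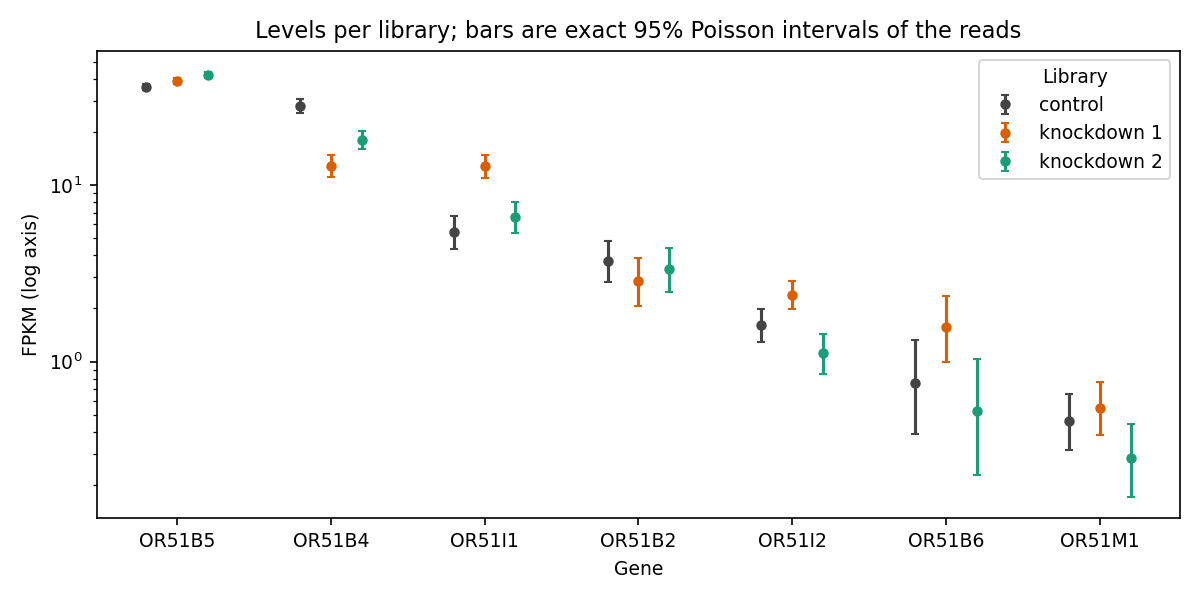
FPKM of the 7 genes with reads (log axis) in the control, knockdown 1 and knockdown 2 libraries, with exact 95% Poisson intervals; OR52A1 and OR51V1, at 0 reads, are not drawn. OR51B4 is highest in the control (28.2 FPKM), OR51I1 in knockdown 1 (12.8), and OR51B5 lies between 36.2 and 42.2.

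The order of levels was OR51B5, OR51B4, OR51I1, OR51B2, OR51I2, OR51B6 and OR51M1 in each of the 3 libraries. OR51B5 stood apart from the next gene in every library. In knockdown 1, the intervals of OR51B4 and OR51I1 (12.9 and 12.8 FPKM) overlapped. So did those of OR51I1 and OR51B2 in the control and of OR51B2 and OR51I2 in knockdown 1. Those of OR51I2 and OR51B6 overlapped in all 3 libraries, and those of OR51B6 and OR51M1 in the control and knockdown 2. Overlap of separate intervals is not a test of the difference between genes.

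Directions were taken by the deposited FPKM. Of the 7 genes with a mean of at least 10 reads, 2 (OR51B5 and OR51I1) were higher than the control in both knockdown libraries. Another 2 (OR51B4 and OR51B2) were lower in both. For OR51B5 in knockdown 1, the direction rests on the deposited scaling. Over all 15034 genes at that read level, 38.2% were higher in both and 34.7% lower in both, shares near those of the members. By limma, 0 of the 5 members tested passed an adjusted p of 0.05, beside 0% of the 12640 genes tested, and 1 of the 5 had an unadjusted p under 0.05 (9.19% of all genes tested). By limma-voom 0 of 7 passed, where 0.865% of 15034 genes did. With limma restricted to a mean of at least 5 FPKM, to a mean of at least 10 reads or to protein-coding genes, 0.0422%, 0.02% and 0.131% of genes passed and again 0 members. The median log2 fold change was 0.04 over the 5 members and 0.04 over all genes tested.

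The 2 knockdown libraries differed from each other at some of these genes, as they did at many others. Intervals of knockdown 1 and knockdown 2 did not overlap for OR51B4, OR51I1 and OR51I2, 3 of 7 members, while 30.9% of the 15034 genes had intervals apart. Knockdown 1 was 1.94 times knockdown 2 for OR51I1 (1.52 to 2.50), 2.14 times for OR51I2 (1.56 to 2.97), 3.00 times for OR51B6 (1.30 to 7.77) and 1.92 times for OR51M1 (1.07 to 3.56). It was 0.710 times knockdown 2 for OR51B4 (0.587 to 0.859) and 0.925 times for OR51B5 (0.875 to 0.978). All these ratio intervals exclude 1, also where the separate intervals overlapped, and that of OR51B2 (0.558 to 1.32) includes it. The share of all genes with a ratio interval that excludes 1 was not computed. These intervals therefore do not set the members apart from other genes. Arranged by distance from the OR51B5 start, the 4 nearest genes (OR51I2, OR51I1, OR51M1 and OR51B6, at 56.3 to 154.1 kb) were above the control in knockdown 1, and the 2 farthest (OR51B2 at 181.4 kb and OR51B4 at 203.7 kb) were below it. In knockdown 2 OR51I1 alone of these 6 was above the control. The counting intervals of the knockdown 1 ratio include 1 for OR51M1 (0.713 to 1.98), OR51B6 (0.993 to 4.59) and OR51B2 (0.507 to 1.17), so these 3 were not distinguishable from the control. The arrangement was noticed after the values were seen and is given as a description.

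**Figure D3:**
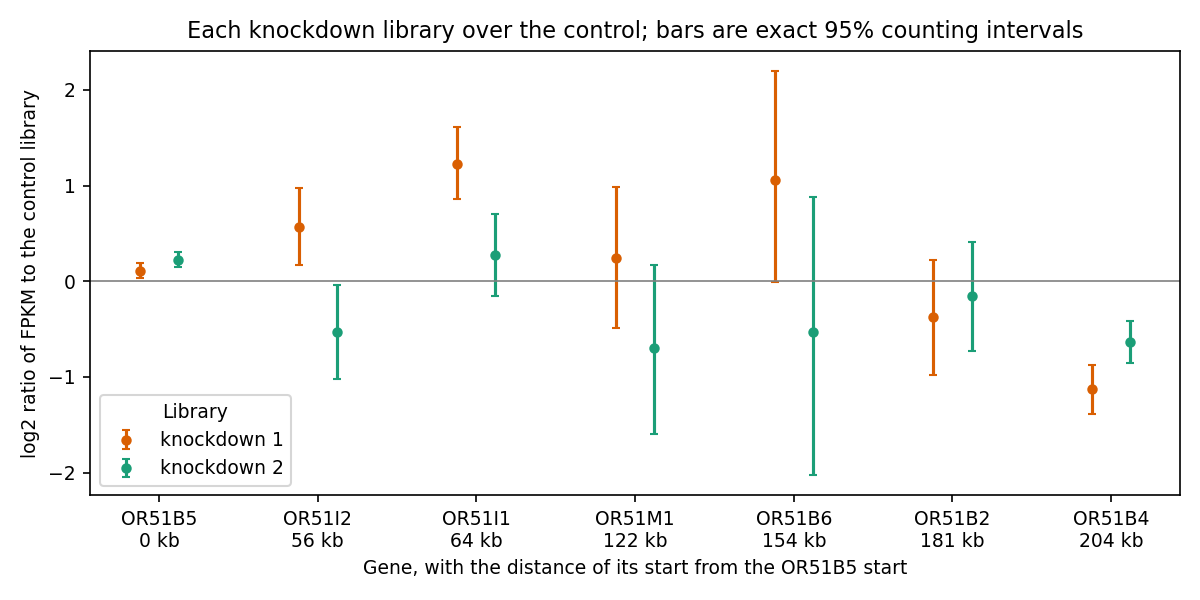
Log2 ratio of FPKM in each knockdown library to the control for the 7 genes with reads, ordered by the distance of their start from the OR51B5 start, with exact 95% counting intervals. OR51B4 lies below 0 in both libraries (ratios 0.457 and 0.643), OR51I1 is 2.34 times the control in knockdown 1, and OR51I2 lies on opposite sides of 0.

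Over all olfactory receptor genes, pseudogenes included, the members held most of the reads but not most of the summed FPKM. Of 4749 such reads in the control, the 9 genes held 66.2% (exact Clopper-Pearson 95% interval 64.9 to 67.6). They held 64.5% of 4663 (63.1 to 65.9) in knockdown 1, and 70.8% of 4569 (69.5 to 72.2) in knockdown 2. OR51B5 by itself held 51.0%, 51.7% and 59.6%. As shares of summed FPKM, the 9 genes held 48.0%, 42.8% and 49.9%, and OR51B5 held 22.7%, 23.2% and 29.2%. OR51B4 held 9.35% (8.54 to 10.2), 4.01% (3.47 to 4.61) and 6.02% (5.35 to 6.75). OR51I1 held 1.83%, 4.03% and 2.21%. All receptor genes together took 0.0297%, 0.0287% and 0.0281% of assigned reads.

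**Figure D4:**
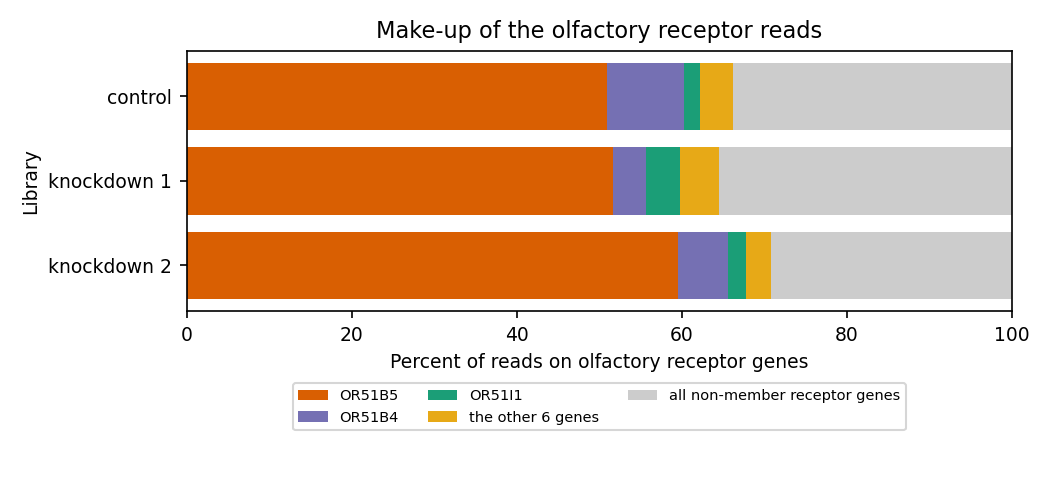
Percent of reads on olfactory receptor genes that fell on OR51B5, OR51B4, OR51I1, the other 6 members and all non-member receptor genes, in each library. OR51B5 takes 51.0% (control), 51.7% (knockdown 1) and 59.6% (knockdown 2), and the band of OR51B4 is widest in the control (9.35%).

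Most other receptor genes had no reads. Of the 842 receptor genes outside the 9, 734 had 0 reads in every library and 19 had a mean of at least 10 reads. The 5 with most reads were OR7E12P, OR52D1, OR2W3, OR8G3P and OR2W6P. OR7E12P, a pseudogene, was at 31.0, 39.4 and 27.6 FPKM, the level nearest to that of OR51B5 among them. OR52D1, the 1 other coding receptor gene inside the OR51B5 span with at least 10 reads, had 11.5 FPKM (9.95 to 13.1), 21.6 FPKM (19.4 to 23.96) and 11.6 FPKM (10.1 to 13.3). It was thus high in knockdown 1 alone, as was OR51I1. OR2W3 was at 5.70, 6.60 and 6.51 FPKM, OR8G3P at 3.88, 3.59 and 3.93, and OR2W6P at 3.15, 2.67 and 2.42, each with overlapping intervals.

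Pseudogenes in the introns of OR51B5 also held reads, which gives a level for sequence in that span with no intact receptor gene. The 7 pseudogenes inside the span, taken as 1 sequence of 5642 exonic bases, were at 1.41 FPKM (1.18 to 1.67), 1.64 FPKM (1.38 to 1.93) and 1.22 FPKM (1.01 to 1.47). Single pseudogenes ran from 0.187 to 2.97 FPKM in the control, from 0.338 to 3.04 in knockdown 1 and from 0 to 3.43 in knockdown 2. OR51I1 was above the highest of them in each library. OR51B2 was above the highest in the control (3.72 FPKM) and below it in knockdown 1 (2.87) and knockdown 2 (3.34), and OR51I2, OR51B6 and OR51M1 lay within the range of the pseudogenes in each library. Among these pseudogenes, OR51K1P was at 1.62, 3.04 and 3.43 FPKM, OR51A10P at 2.97, 2.95 and 1.18, OR51B8P at 2.39, 2.01 and 1.28, OR51B3P at 1.04, 0.563 and 0.404, OR51J1 at 0.187, 0.338 and 0.647, and AC104389.2 at 0.601, 1.09 and 0.624.

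Of the 35 genes that overlap or lie within 50 kb of a member, 16 had at least 10 reads in at least 1 library and 13 had 0 reads in all. The fetal globin gene HBG1 was at 26.4, 58.9 and 53.3 FPKM, and its near-identical copy HBG2, which shares first-exon bases with OR51B5, at 14.6, 16.6 and 17.1. Reads of these copies and of AC104389.5, a gene model that overlaps both copies (6.19, 9.57 and 5.48 FPKM), may be split between them by the counting. HBG1 passed by limma-voom (adjusted p = 0.00338) and did not by limma (log2 fold change 1.06 ± 0.17, SE; adjusted p = 0.369), while OR51B5 and HBG2 had fold changes of 0.16 and 0.19. The other genes of the cluster were low. HBE1, the embryonic gene that shares 84 exonic bases with OR51B5, had 8, 3 and 3 reads. The adult genes HBB and HBD had 13, 7 and 40 reads and 14, 24 and 39 reads, the pseudogene HBBP1 33, 29 and 33, and the non-coding gene BGLT3 44, 50 and 31. AC104389.4 had 62, 32 and 36 reads, and the receptor pseudogene OR51AB1P, inside the annotated span of HBE1, had 11, 4 and 1.

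Of 11 globin genes 8 were tested by limma, of which 7 were higher in both knockdown libraries and 0 lower. Over all 12640 genes tested, 42.5% were higher in both and 30.8% lower, which is the background for the lists that follow too. The median log2 fold change of the 8 was 0.81, beside 0.04 over all genes, and 0 passed by limma. By limma-voom 4 of 9 passed (0.865% of all genes). Of 13 genes for factors that act on the globin locus 12 were tested, 5 were higher in both libraries and 2 lower, and 0 passed by limma or limma-voom (median 0.00). GATA1, the main erythroid GATA factor, was at 128.5, 104.5 and 115.6 FPKM, LDB1, an adaptor that joins the control region to globin promoters, at 65.5, 57.9 and 54.4, KLF1 at 56.5, 61.7 and 55.8, and NFE2 at 57.6, 52.9 and 58.1. BCL11A, a repressor of fetal globin genes, had 0, 0 and 1 reads. Of 9 architectural proteins 7 were higher in both libraries (42.5% of all genes) and 1 lower (30.8%), and 0 passed by either test (median 0.10). RAD21 was at 41.3, 42.6 and 45.1 FPKM, SMC1A at 31.4, 40.5 and 37.0, SMC3 at 20.5, 21.7 and 22.1, and STAG2 at 20.0, 17.7 and 20.7.

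The machinery that olfactory receptors use in the nose was detected in part. Of 16 transduction and receptor trafficking genes, 8 were at 0 reads in every library, including the channel subunits CNGA2, CNGA4 and CNGB1 and the trafficking proteins RTP1 and RTP2. GNAL had 25, 14 and 20 reads. The 4 tested were ADCY3 (7.35, 10.1 and 7.55 FPKM), ARRB2, a beta-arrestin (4.40, 6.66 and 5.26), GRK3, a receptor kinase (2.21, 1.58 and 1.97), and RIC8B, a chaperone of the olfactory G protein (1.28, 1.01 and 1.15). Of these, 2 were higher in both libraries and 2 lower, and 0 passed by either test (median 0.04). Of 9 regulators of receptor choice 6 were tested, and 0 passed by limma. ATF5, at 52.6, 19.5 and 33.3 FPKM, fell by limma-voom (adjusted p = 0.0120) and did not pass by limma (log2 fold change −1.02 ± 0.32, SE; adjusted p = 0.478), and the list's median was 0.07. LDB1, which is on this list too, KDM1A (37.2, 40.5 and 42.2 FPKM) and CBX5 (14.2, 16.7 and 16.1) were its other abundant members. LHX2, the homeodomain partner of LDB1 in olfactory neurons, had 1, 0 and 0 reads.

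The genes whose 2 knockdown-to-control ratios were most like those of OR51B5 were TMEM120A, NME7, ACTR10, C1GALT1 and ARL6IP1. Likeness was the distance between the pairs of log2 ratios over 3 libraries, and among 11828 other coding genes with a mean of at least 10 reads these lay at 0.0022 to 0.0090. As 517 genes lay within 0.1, the pattern of OR51B5 was a common one. ARL6IP1, the nearest of them in level, was at 38.5, 41.6 and 45.3 FPKM.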

How the data were processed

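The authors deposited FPKM values, 1 per Ensembl gene and library (unit per the file headers). BWA, Bowtie and hg19 appear in the submitters' processing notes without version or role, and no source used here names the counter. All 58735 identifiers matched GENCODE release 29 (GRCh38), which gave symbols, coordinates and exon lengths. Multiplied by exon length, 100% of deposited values above 0 gave whole reads (within 0.05) at a single step size in each library, so reads were recovered. The coordinates are therefore those of release 29, not of hg19. The read totals implied as divisors were 16884224, 15564009 and 16261681, against assigned totals of 16014485, 16221721 and 16254461, so the deposited values already carry a scaling between libraries.

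Limma 3.58.1 (R 4.3.3), fitted with an intensity trend to log2(FPKM + 1) of all 3 libraries, was the main test. It took genes whose mean reached 1 FPKM and was two-sided, with Benjamini-Hochberg adjustment at 0.05; fold changes on this scale understate those of low genes. It has 1 residual degree of freedom, from the 2 knockdown libraries; the lone control is assumed to vary like them. Both fits were tested on simulated data with known changes. Limma called none of the smallest changes simulated, which were 2-fold, so an absence of calls says little about changes of that size. The simulation gave every gene the same relative spread beyond counting, and gave both knockdown libraries the same change. Neither need hold in these data. Single values have exact 95% Poisson intervals, ratios exact conditional intervals, and floors are 3 reads. Coding sequences were aligned globally with Biopython 1.88; the sequences themselves are not reported here. Alternatives covered filters, pseudocounts (0.1, 0.5 and 5), trend, scaling, single knockdown libraries and limma-voom on recovered reads with the divisors as library sizes. Named genes were all 9 members, neighbours within 50 kb with at least 10 reads in 1 library, the beta-like globins, the 5 other receptor genes with most reads, the 5 genes most alike, and up to 4 most abundant members of each of 5 lists; further names in the text were chosen after their values were seen. The members, lists and rules were chosen with earlier results of these data known.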

Additional observations from a re-analysis of the deposited data

How the results depend on the processing

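No member passed an adjusted p of 0.05 under any setting that was run. For OR51B4, OR51B2 and OR51I1 the sign of the fold change was kept in all of them. The log2 fold change of OR51B5 was 0.060 when scaled to all assigned reads and −0.024 under quantile normalization. That of OR51I2 was −0.032 when scaled to all assigned reads. The cause of these differences between settings was not tested. From single knockdown libraries, the log2 fold changes ran from 0.11 to 0.22 for OR51B5, −1.07 to −0.61 for OR51B4, −0.29 to −0.12 for OR51B2, 0.23 to 1.09 for OR51I1 and −0.30 to 0.38 for OR51I2. The count of all genes past the threshold was 0 in the main fit (1161 at an unadjusted p under 0.05), 3 at a mean of at least 5 FPKM, 3 at a mean of at least 10 reads, 13 among protein-coding genes and 130 by limma-voom on recovered reads; the last 2 were added after the data were seen. Over protein-coding receptor genes OR51B5 held 62.9%, 64.3% and 71.4% of reads (control, knockdown 1, knockdown 2). The 9 members held 81.8%, 80.3% and 84.8% of them. As shares of FPKM over all receptor genes, pseudogenes included, OR51B5 held 22.7%, 23.2% and 29.2%. The 9 members held 48.0%, 42.8% and 49.9% of that FPKM. Shares of FPKM over coding receptor genes alone were not computed. The planned edgeR and DESeq2 tests and voom with TMM factors were not run; limma-voom on recovered reads was run in their place. No paired analysis was possible because a single control library stands against 2 knockdown libraries. OR51B6, OR51M1, OR51B2 and OR51I2, with as few as 8, 19, 42 and 60 reads in a library, are limited by depth.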
